A study of Mus musculus with 9 samples.

Results

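Liver RNA from db/db mice treated with FGF19ΔKLB was compared with liver RNA from db/db mice that received vehicle. The comparison used 6 of the 9 libraries of the series, 3 titled vehicle and 3 titled FGF19ΔKLB, and all 28517 genes of the deposited table. Every mouse in both groups was db/db, a strain that lacks a working long form of the leptin receptor and becomes obese and diabetic. The vehicle mice received PBS and the treated mice received FGF19ΔKLB, both for 12 weeks. The labels do not state the sequence change in FGF19ΔKLB, the age or sex of the mice, or whether each library came from a separate animal, so p-values measure the spread between these libraries. In the column headers the treated group carries the code F19_HBS, which the sample descriptions tie to the FGF19ΔKLB titles.

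FGF19 is a hormone released by the ileum after bile acids are absorbed, and its mouse counterpart is FGF15. In hepatocytes it binds FGFR4 together with the coreceptor β-klotho, encoded by Klb, and the signal runs through the ERK kinases to repress Cyp7a1, the gene for the rate-limiting enzyme of bile acid synthesis. The series title concerns the tumor risk of FGF19 and the pairing of its receptors. The comparison asks which liver transcripts differ after long treatment with FGF19ΔKLB.

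Of the 17340 genes with enough counts to be tested, 155 (0.894%) rose and 137 (0.79%) fell with FGF19ΔKLB at an adjusted p under 0.05. All adjusted p-values come from edgeR's quasi-likelihood test on these 6 libraries with Benjamini-Hochberg adjustment, and values per library are CPM, counts scaled to a common library size with TMM factors. All 292 called genes had groups that did not overlap, against 12.4% of tested genes with every FGF19ΔKLB library above every vehicle library and 12.7% with every one below. With 3 libraries per group the threshold selects such genes, so their separation adds no support to the calls. The rises were mostly small, with a median log2 fold change of 0.93 and 32 of 155 over 4-fold, whereas the falls had a median of -1.62 and 54 of 137 were over 4-fold. A fit of limma to log2(FPKM + 1) called 130 genes higher (1.27% of 10218) and 339 lower (3.32%), a different split, and on that scale the median of all genes lay at -0.10 instead of 0.00.

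The number of calls depended on each library except FGF19ΔKLB 2. Leaving out vehicle 1 gave 15 rises and 29 falls, vehicle 2 gave 41 and 54, and vehicle 3 gave 32 and 52. Without FGF19ΔKLB 1 there were 25 rises and 45 falls, without FGF19ΔKLB 3 there were 37 and 61, and without FGF19ΔKLB 2 there were 126 and 150. Calls that held in all 6 of these fits numbered 9 among the rises (Cyp2a4 and its antisense neighbour Gm42375, Fgfr2, Tstd1, Tent5a, Alcam, Ccl9, Ngef and Rps25) and 19 among the falls, among them Cyp7a1, Cidec, Clstn3, Mogat1, Rdh16, Ugt3a1, Gsta2, Ephb2, Slc35f2, Tlcd2 and Gas2. Each later statement of how many leave-one-out fits called a gene refers to these 6.

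The first principal component of log2 CPM held 37.8% of the variance and separated the groups. Library totals were 68764247 to 73294927 counts, at about 4 counts a read pair, and 21063 to 21880 genes had a count. Albumin took 11.2%, 13.5% and 8.61% of the counts of the vehicle libraries and 19.7%, 16.3% and 21.1% of the FGF19ΔKLB libraries (difference of means 7.91 percentage points, exact two-sided permutation test p = 0.1, the smallest that 3 against 3 allows). Genes of the mitochondrial genome took 9.84%, 7.45% and 7.69% in vehicle and 5.09%, 6.48% and 6.36% in FGF19ΔKLB.

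**Figure D1:**
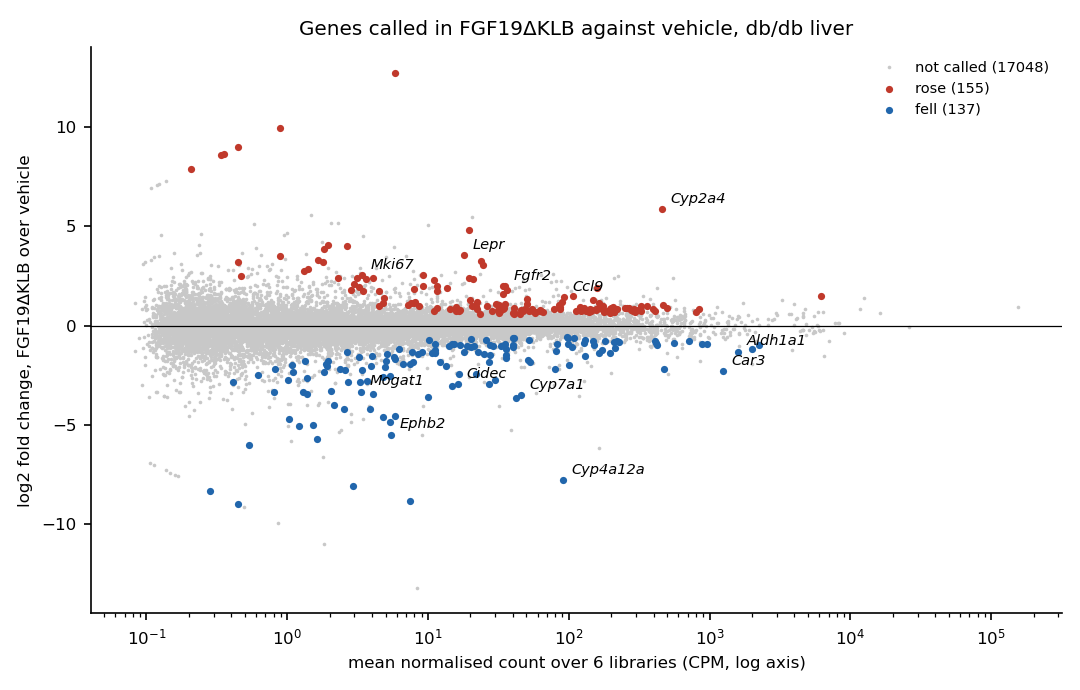
Each point is 1 of the 17340 tested genes, with its mean CPM over the 6 libraries on a log axis and its log2 fold change of FGF19ΔKLB over vehicle. The 155 genes that rose are red and the 137 that fell are blue, and Cyp2a4 and Cyp4a12a lie far from 0 at high expression. Fold changes of genes with no counts in 1 group depend on the fit's prior count and are not bounds.

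Of 16 tested genes of bile acid synthesis, Cyp7a1, Cyp7b1 and Cyp27a1 fell with FGF19ΔKLB. Cyp7a1, which opens the classical route, stood at 82.4, 101 and 67.9 CPM in the vehicle libraries and at 9.21, 7.39 and 5.31 CPM in the FGF19ΔKLB libraries. The groups lay far apart, and the vehicle level was 11.5-fold higher (log2 fold change -3.52 ± 0.25 SE, adjusted p = 0.00606), called in all 6 leave-one-out fits. Cyp7b1, an oxysterol hydroxylase of the alternative route, fell from 12.4, 14.4 and 11.8 CPM to 4.75, 5.44 and 5.33 CPM (log2 -1.31 ± 0.15 SE, adjusted p = 0.0147). Cyp27a1, the mitochondrial sterol 27-hydroxylase that opens the alternative route, fell from 240, 273 and 208 CPM to 106, 119 and 78.1 CPM (log2 -1.25 ± 0.19 SE, adjusted p = 0.028), with a call in 1 leave-one-out fit.

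Cyp8b1, the sterol 12α-hydroxylase that sets the amount of cholic acid, had vehicle values of 212, 304 and 132 CPM and FGF19ΔKLB values of 9.06, 0.929 and 46.2 CPM. The groups did not overlap, but the treated libraries differed from each other so widely that the gene was not called (log2 -3.53 ± 1.28 SE, adjusted p = 0.244). The list had 3 falls and no rise, 11 genes were lower and 2 higher without overlap, and the list's median log2 fold change was -0.58 beside 0.00 for all tested genes. Leaving out 1 library gave between 1 fall (without FGF19ΔKLB 1 or without vehicle 1) and 4 falls (without FGF19ΔKLB 2). Cyp2c70, which makes the muricholic acids of mice, and Cyp39a1, a hydroxylase for 24-hydroxycholesterol, had positive log2 values of 0.97 and 1.03 and adjusted p of 0.0839 and 0.121. Among 13 bile acid transporters, Slco1a4, a basolateral uptake carrier, rose from 86.5, 92.8 and 68.1 CPM to 187, 148 and 135 CPM (log2 0.93 ± 0.17 SE, adjusted p = 0.0496), although no leave-one-out fit called it. Neither Abcb11, the canalicular bile salt export pump (log2 -0.35, 95% interval -1.06 to 0.37), nor Nr0b2, the repressor SHP induced by FXR (log2 0.26, 95% interval -0.83 to 1.36), was called.

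The promoter of Cyp8b1, a gene that was not called, is shown because it holds CAAGGNCA. These letters are bound by the nuclear receptor LRH-1, which is known to drive Cyp8b1. The 250 bases before the RefSeq start lie on GRCm38 at chr9:121916306-121916555, minus strand, and capitals mark the motif.
Cyp8b1: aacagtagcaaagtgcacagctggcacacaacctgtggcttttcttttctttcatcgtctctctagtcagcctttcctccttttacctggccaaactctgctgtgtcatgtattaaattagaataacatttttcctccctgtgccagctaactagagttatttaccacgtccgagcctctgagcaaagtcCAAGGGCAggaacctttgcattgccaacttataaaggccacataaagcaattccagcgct
The same 8 letters, searched on both strands of the 300-base window that begins 250 bases before each start, occurred in 7.64% of all 27025 genes with a window. They occurred in 15 of 93 protein-coding genes that fell (16.1%), in 4 of 64 that rose and are not ribosomal proteins (6.25%), and in 666 of 10738 tested protein-coding genes (6.2%). Among the bile acid genes that fell, the window of Cyp27a1 held no match, and Cyp7a1 and Cyp7b1 had no window. Matches are runs of letters and were not tested for binding. For 4 genes that fell, a match is printed in a 30-base stretch on the strand of the gene. A motif on the opposite strand thus appears as its reverse complement. The Ugt3a1 stretch also holds an overlapping match, CAAGGGCA, that is not marked in full.
Ugt3a1 (chr15:9279775-9279804): attagcagagaCAAGGCCAagggcaaaagg
Fitm1 (chr14:55575469-55575498): ttccacccaccCAAGGCCAggaccatgttg
Mgst1 (chr6:138141421-138141450): ttgaagagtcaTGGCCTTGtggctgtgtgc
Stat5a (chr11:100859413-100859442): gacttccagccTGGCCTTGtccaacccctg

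Neither Fgfr4 nor Klb was called, but another FGF receptor and feedback genes of the ERK pathway rose. Fgfr4 stood at 35.8, 35.7 and 35.3 CPM in vehicle and 42.8, 31.4 and 48.2 CPM in FGF19ΔKLB (log2 0.20, 95% interval -0.18 to 0.57), and the groups overlapped. Klb stood at 23.6, 28.6 and 19.2 CPM against 31.4, 18.5 and 29 CPM (log2 0.14, 95% interval -0.39 to 0.68). Fgfr2, which encodes another FGF receptor, rose from 14.4, 13.3 and 14.8 CPM to 59.4, 50.3 and 59.8 CPM. That is a 3.99-fold rise with very little spread (log2 2.0 ± 0.12 SE, adjusted p = 0.00558), called in all 6 leave-one-out fits, and it was the only call among the 12 tested FGF receptors, klothos and FGF hormones. The table gives Fgfr2 a span of chr7:130162451-133123350, minus strand, which covers other genes such as Oat, so reads may be shared between them. Oat fell.

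Dusp6, a phosphatase that inactivates ERK, rose from 24.1, 19.9 and 18.5 CPM to 48.2, 43.5 and 37.8 CPM (log2 1.05 ± 0.15 SE, adjusted p = 0.0246). Spry4, a feedback inhibitor of receptor tyrosine kinase signalling, rose from 9.42, 3.32 and 6.1 CPM to 38.4, 30.5 and 30.4 CPM (log2 2.40 ± 0.37 SE, adjusted p = 0.0385). The immediate early transcription factor gene Egr1 rose from 12.9, 12.2 and 15.4 CPM to 68.3, 28.4 and 67 CPM (log2 2.02 ± 0.34 SE, adjusted p = 0.0465). Ier2, another immediate early gene, completed the 4 rises among 20 tested ERK feedback and immediate early genes (log2 1.0, adjusted p = 0.0438), of which 17 had a positive log2 value and 11 were higher without overlap (median 0.79). Leaving out 1 library left between 0 rises (without FGF19ΔKLB 1 or without vehicle 3) and 3 with 1 fall (without FGF19ΔKLB 2). Etv5 and Etv4, ETS factors induced by FGF signals, were higher without overlap at adjusted p = 0.0586 and 0.0581. Myc, in contrast, was lower in every FGF19ΔKLB library (log2 -0.64, adjusted p = 0.211), and Jun, which is outside the list and was picked after its values were seen, fell from 20.5, 19.1 and 18.6 CPM to 8.52, 11.3 and 10.8 CPM (log2 -0.93 ± 0.14 SE, adjusted p = 0.0304).

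Several genes that build and coat lipid droplets fell. Cidec, which fuses droplets into larger ones, fell from 32.6, 29.8 and 24.5 CPM to 2.97, 4.88 and 3.42 CPM (log2 -2.95 ± 0.22 SE, adjusted p = 0.00606). Clstn3, whose locus gives a short transcript for a droplet protein in adipocytes, fell from 34.6, 27.2 and 17.2 CPM to 3.12, 2.73 and 3.61 CPM (log2 -3.06 ± 0.27 SE, adjusted p = 0.00791). Both were called in all 6 leave-one-out fits. Fitm1, an endoplasmic reticulum protein that binds triglyceride, fell from 44.9, 36.2 and 29.5 CPM to 4.18, 8.77 and 7.17 CPM (log2 -2.46 ± 0.30 SE, adjusted p = 0.0187).

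Plin5, a droplet coat protein of oxidative tissues, fell from 54.6, 53.9 and 40.1 CPM to 24.8, 20.4 and 19.6 CPM (log2 -1.20 ± 0.16 SE, adjusted p = 0.0219). Cidea, a relative of Cidec, had 10.9, 3.8 and 2.84 CPM in vehicle and 0, 0 and 0.0636 CPM in FGF19ΔKLB (adjusted p = 0.0275). These 5 falls came from 17 tested droplet genes, of which 8 were lower and 2 higher without overlap. Plin2, the most abundant droplet coat of hepatocytes, overlapped between groups at 517, 734 and 413 CPM against 597, 466 and 454 CPM (log2 -0.13, 95% interval -0.66 to 0.40). Pnpla3, a lipase-like gene induced by SREBP-1c, was higher without a call, from 0.181, 1.93 and 0.422 CPM to 13.4, 8.68 and 5.74 CPM (adjusted p = 0.124). Leaving out 1 library gave 2 falls without FGF19ΔKLB 3, vehicle 1 or vehicle 2, and 5 without FGF19ΔKLB 2, and 1 rise without FGF19ΔKLB 2 or vehicle 2.

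Fatty acid uptake and triglyceride synthesis included 4 falls and no rise among 21 tested genes. Mogat1, a monoacylglycerol acyltransferase, fell from 6.96, 6.78 and 4.64 CPM to 0.512, 0.479 and 0.827 CPM (log2 -3.34 ± 0.32 SE, adjusted p = 0.00868), with a call in all 6 leave-one-out fits. Pparg, the nuclear receptor that controls several of these genes in fatty liver, fell from 20.9, 26.1 and 20.7 CPM to 11.9, 12.9 and 9.09 CPM (log2 -0.99 ± 0.17 SE, adjusted p = 0.044). Cd36, a fatty acid carrier, fell from 191, 213 and 196 CPM to 117, 93.3 and 93.4 CPM (log2 -0.98 ± 0.13 SE, adjusted p = 0.0218). The fall of Gpat4, a glycerol-phosphate acyltransferase, was smaller (log2 -0.64, adjusted p = 0.0493). The list's count was 1 fall in 4 of the leave-one-out fits and 2 without FGF19ΔKLB 1. Without FGF19ΔKLB 2 it was 3 falls and 1 rise.

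**Figure D2:**
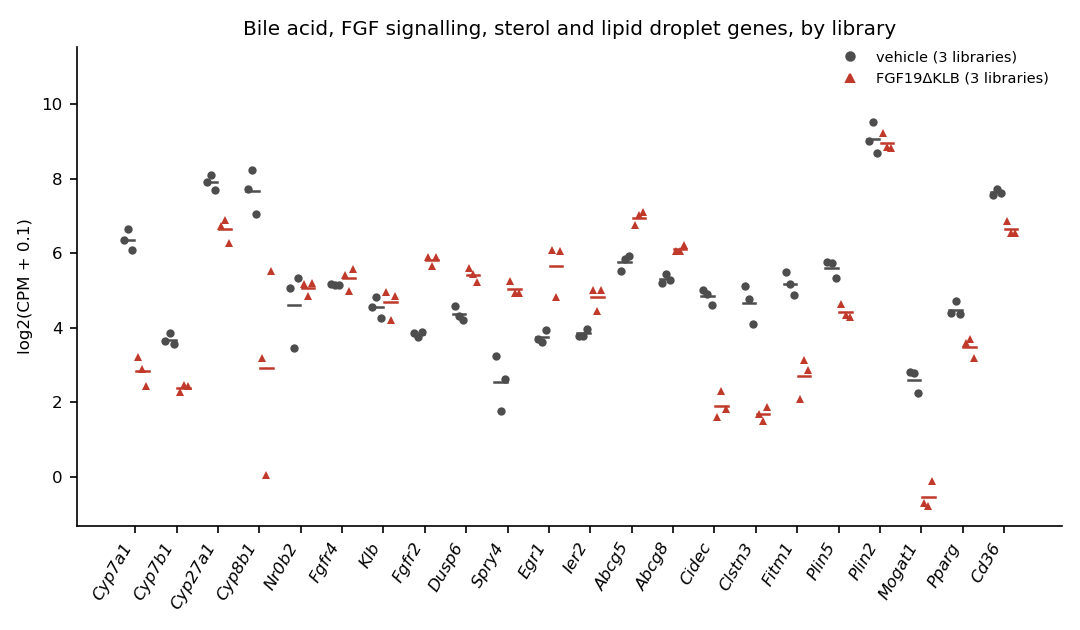
The vertical axis is log2(CPM + 0.1), each point is 1 library (3 vehicle, dark circles; 3 FGF19ΔKLB, red triangles) and short bars are group means. Cyp7a1, Cidec, Clstn3 and Mogat1 are low in all 3 FGF19ΔKLB libraries, Fgfr2 is high in all 3, Cyp8b1 varies widely among them, and Fgfr4, Klb, Nr0b2 and Plin2 overlap.

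None of 16 genes for de novo synthesis of fatty acids was called by edgeR, whereas 12 had positive log2 values and 6 were higher without overlap. DESeq2 called 6 rises among them, but it called 664 rises over all genes where edgeR called 155. It also called more in other lists, such as 32 rises of cytosolic ribosomal protein genes, 10 falls of pericentral genes and 4 falls of fatty acid oxidation genes. Fasn, the fatty acid synthase, stood at 81.5, 370 and 193 CPM in vehicle and at 524, 512 and 588 CPM in FGF19ΔKLB (log2 1.33 ± 0.51 SE, adjusted p = 0.257). Srebf1, which encodes SREBP-1, stood at 50.1, 121 and 97.3 CPM against 251, 263 and 147 CPM (log2 1.3 ± 0.37 SE, adjusted p = 0.149). Scd1, a desaturase, overlapped between groups (log2 -0.23).

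Both genes of the biliary sterol exporter rose. Abcg5 rose from 46.2, 57.5 and 61.1 CPM to 109, 129 and 137 CPM (log2 1.19 ± 0.15 SE, adjusted p = 0.0187), and Abcg8 rose from 36.4, 43.8 and 39.2 CPM to 66.5, 66.8 and 74.2 CPM (log2 0.80 ± 0.12 SE, adjusted p = 0.0275). Their products form 1 transporter that moves cholesterol into bile. The genes are head to head on chromosome 17, Abcg5 at chr17:84658234-84683011 on the minus strand and Abcg8 at chr17:84676302-84700333 on the plus strand, so their annotated spans overlap. They were the 2 calls among 14 sterol exporters and LXR targets. The leave-one-out fits gave 0 rises without FGF19ΔKLB 3 or vehicle 1, 2 without FGF19ΔKLB 2 and 1 in the others. Of 24 genes for cholesterol synthesis and uptake, 19 had positive log2 values (median 0.60, and 0.18 without FGF19ΔKLB 3), but 1 was called: Stard4, a sterol carrier, rose from 50.9, 64.4 and 60.6 CPM to 106, 96 and 139 CPM (log2 0.96 ± 0.17 SE, adjusted p = 0.0453), called in 1 leave-one-out fit, that without FGF19ΔKLB 2.

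The lists for fatty acid oxidation and ketogenesis and for gluconeogenesis had no edgeR calls. Of 24 genes for fatty acid oxidation and ketogenesis, 22 had negative log2 values with a median of -0.32 (-0.21 without FGF19ΔKLB 2 or vehicle 2), and 7 were lower without overlap. The gluconeogenesis list of 14 genes had a median of 0.10. Pck1, which commits carbon to glucose, stood at 2634, 1202 and 2434 CPM in vehicle and 1103, 1384 and 2210 CPM in FGF19ΔKLB (log2 -0.42, 95% interval -1.28 to 0.45). G6pc, the last step of glucose release, stood at 151, 383 and 95.1 CPM against 103, 91.4 and 78.6 CPM (log2 -1.20, adjusted p = 0.297). Fgf21, a hormone that liver secretes in metabolic stress, ranged over 21.9, 73.6 and 6.57 CPM against 26, 29 and 4.98 CPM, with more spread within groups than between them.

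Several of the largest changes were in sex-biased genes, whose male and female levels in mouse liver are set by the pattern of growth hormone pulses through STAT5. Cyp2a4, a female-biased steroid hydroxylase, rose from 9.19, 26.6 and 9.69 CPM to 723, 829 and 1138 CPM, a 59.2-fold change (log2 5.89 ± 0.55 SE, adjusted p = 0.0127) called in all 6 leave-one-out fits. Its near-identical neighbour Cyp2a5 overlapped between groups (537, 723 and 429 CPM against 412, 848 and 215 CPM), and how reads were divided between them is not given in the sources used here. Cux2, a female-biased transcription factor gene, rose from 3.68, 2.9 and 7.01 CPM to 55.3, 32 and 41.1 CPM (log2 3.24 ± 0.39 SE, adjusted p = 0.0218). Cyp3a16, from a cluster of closely similar genes, rose from 2.45, 0.558 and 0.98 CPM to 43.6, 19.5 and 51.1 CPM (log2 4.83 ± 0.68 SE, adjusted p = 0.0345).

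Several male-biased genes fell. Cyp4a12a, an arachidonic acid hydroxylase, fell from 300.3, 77.1 and 162 CPM to 0.242, 0.885 and 1.34 CPM (log2 -7.78 ± 0.88 SE, adjusted p = 0.0219), although a call held in 1 leave-one-out fit. Its close copy Cyp4a12b stood at 24.3, 4.27 and 15.7 CPM in vehicle and 0, 0 and 0.0954 CPM in FGF19ΔKLB (adjusted p = 0.0303). Mup16, of the near-identical major urinary protein family, fell from 2.89, 15.7 and 8.83 CPM to 0.228, 0.29 and 0.604 CPM (adjusted p = 0.044). Cyp4a12b and Mup16 were not in the list of male-biased genes and were named for their large change. In the list of 14 tested male-biased genes, Cyp4a12a and Cyp7b1 fell, 8 were lower and 1 higher without overlap, and the median was -0.83 (-1.28 without FGF19ΔKLB 3). Of these 14, 4 had positive log2 values, up to 1.16. The list's summed level was 3326, 2282 and 2965 CPM in vehicle and 1979, 2252 and 6488 CPM in FGF19ΔKLB. Neither Cyp4a12a nor Cyp7b1 was called without FGF19ΔKLB 1 or without vehicle 1.

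Of 14 female-biased genes, Cyp2a4 and Cux2 rose, 8 were higher without overlap, and the median was 2.13. The exception was Cyp2b10, which is also the classical target of the receptor CAR and fell from 4.33, 2.06 and 1.18 CPM to 0.342, 0.145 and 0.191 CPM (log2 -3.47 ± 0.60 SE, adjusted p = 0.043). In 3 of the leave-one-out fits (without FGF19ΔKLB 1, vehicle 1 or vehicle 2) 1 female-biased gene rose, and none fell in any of them.

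Within the growth hormone axis, Ghr, its receptor, fell from 289, 281 and 271 CPM to 168, 180 and 138 CPM (log2 -0.79 ± 0.13 SE, adjusted p = 0.0391). Bcl6, a repressor that is higher in male liver, fell from 27.2, 16.1 and 22 CPM to 6.99, 5.79 and 3.15 CPM (log2 -2.03 ± 0.33 SE, adjusted p = 0.0396). Stat5a, which encodes one of the STAT5 proteins, fell from 13.6, 11.9 and 12.1 CPM to 7.63, 7.48 and 7.95 CPM (log2 -0.71 ± 0.13 SE, adjusted p = 0.048). Igf1, the main secreted product of growth hormone action on liver, overlapped between groups at 281, 226 and 255 CPM against 297, 210 and 314 CPM (log2 0.11, 95% interval -0.30 to 0.52). Socs2, a STAT5 target, was also not called (log2 1.42, adjusted p = 0.316). Of the 12 tested genes of the axis, 1 rose and 3 fell. No fall was called in any leave-one-out fit except the one without FGF19ΔKLB 2, which called 2.

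Lepr, the leptin receptor gene, rose from 1.48, 4.07 and 2.98 CPM to 40.7, 25.5 and 33.1 CPM, an 11.6-fold change (log2 3.54 ± 0.40 SE, adjusted p = 0.0187) called in 3 leave-one-out fits. The db mutation removes the long form by altered splicing, and gene counts do not separate the forms. Leprot, its neighbour, did not move with it, at 14.3, 13.8 and 14.3 CPM against 13.2, 16 and 17.6 CPM.

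Several genes of hepatocytes around the central vein fell. Slc1a2, a glutamate carrier of those cells, fell from 192, 108 and 90.8 CPM to 29.9, 23.8 and 32.6 CPM (log2 -2.18 ± 0.30 SE, adjusted p = 0.0275). Oat, ornithine aminotransferase, fell from 1192, 642 and 497 CPM to 209, 134 and 171 CPM (log2 -2.18 ± 0.35 SE, adjusted p = 0.043). Glul, glutamine synthetase and the defining gene of the last ring of cells, stood at 971, 643 and 532 CPM against 247, 217 and 354 CPM, without overlap and just outside the threshold (log2 -1.39 ± 0.27 SE, adjusted p = 0.0579).

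In all, 3 of 19 pericentral genes fell, 10 were lower without overlap, and the median was -0.95. Leaving out 1 library left 0 falls in 4 fits, 1 without vehicle 1 and 2 without vehicle 3. None of 16 periportal genes was called, and their median was 0.20. Cyp2f2, a periportal P450, stood at 567, 480 and 495 CPM in vehicle and 148, 118 and 475 CPM in FGF19ΔKLB, with 1 treated library near the vehicle level (adjusted p = 0.382). The difference between the pericentral and periportal lists was not tested.

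Drug-conjugating enzymes included 3 falls and no rise among 25 tested genes, with 13 lower and 3 higher without overlap. Ugt3a1, a sugar transferase, fell from 93.4, 73.2 and 70.3 CPM to 25.2, 23.7 and 21.9 CPM (log2 -1.74 ± 0.14 SE, adjusted p = 0.00606). Gsta2, a glutathione transferase with close copies in the genome, fell from 111, 61 and 60.6 CPM to 8.31, 5.14 and 5.39 CPM (log2 -3.63 ± 0.33 SE, adjusted p = 0.0111). Mgst1, a microsomal glutathione transferase, fell from 2960, 2739 and 2639 CPM to 1207, 1195 and 1335 CPM (log2 -1.16 ± 0.13 SE, adjusted p = 0.0139). Ugt3a1 and Gsta2 were called in all 6 leave-one-out fits. Csad, which makes the taurine that conjugates bile acids, fell from 32.3, 70.6 and 41.8 CPM to 6.08, 8.01 and 4.67 CPM (log2 -2.95 ± 0.35 SE, adjusted p = 0.0203).

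**Figure D3:**
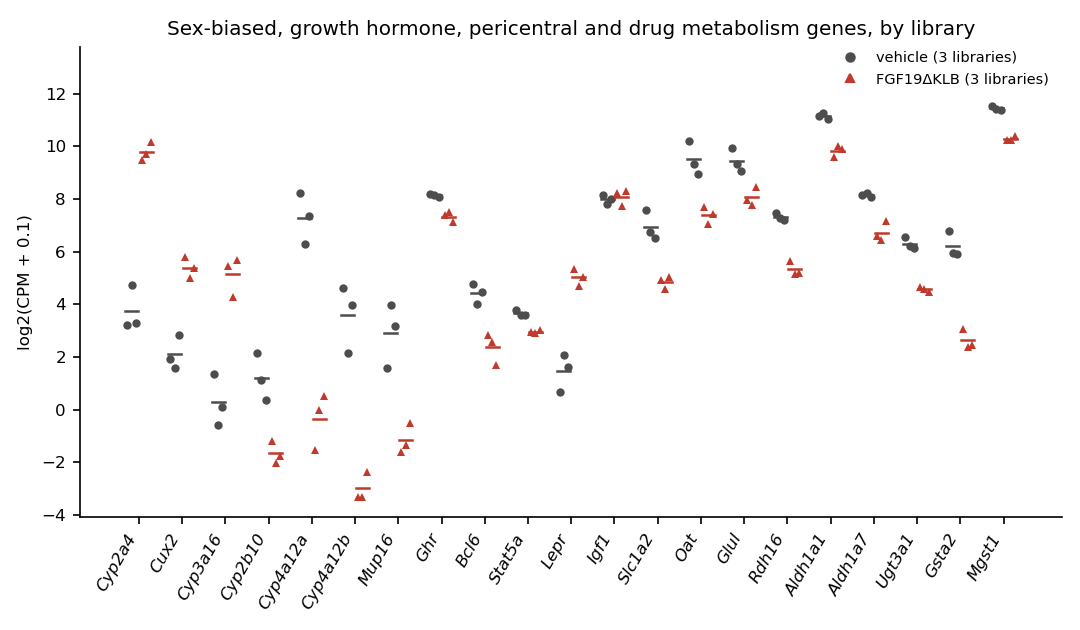
The vertical axis is log2(CPM + 0.1), each point is 1 library (3 vehicle, dark circles; 3 FGF19ΔKLB, red triangles) and short bars are group means. Cyp2a4, Cux2, Cyp3a16 and Lepr are higher and Cyp4a12a, Cyp4a12b, Mup16 and Gsta2 lower in every FGF19ΔKLB library, while Igf1 overlaps.

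Of 35 listed genes for cytosolic ribosomal proteins, 16 rose and none fell, 33 were higher without overlap, and the median log2 fold change was 0.65. Rpl23 rose from 116, 119 and 116 CPM to 235, 221 and 243 CPM (log2 1.0 ± 0.10 SE, adjusted p = 0.0111). Rps6, the ribosomal protein phosphorylated by S6 kinase, rose from 329, 369 and 355 CPM to 703, 583 and 663 CPM (log2 0.89 ± 0.13 SE, adjusted p = 0.0256). Rps18 alone had a negative value, from a single high library (23.3, 137 and 25.1 CPM in vehicle, 35.6, 36.9 and 40.2 CPM in FGF19ΔKLB), and without vehicle 2 its log2 fold change was 0.64.

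Over all 81 tested protein-coding genes with a ribosomal protein symbol, a set taken after the values were seen, 36 rose and 72 were higher without overlap (median 0.67). Rps25 gave the smallest p of them, from 86.7, 79.6 and 89.6 CPM to 209, 208 and 216 CPM (log2 1.31 ± 0.11 SE, adjusted p = 0.00606), called in all 6 leave-one-out fits. The list's count of 16 was less stable: 8 without FGF19ΔKLB 2, 2 without FGF19ΔKLB 3, 0 without vehicle 1 and 1 without each of the others, while the median stayed between 0.60 and 0.70. Ribosomal protein genes have many processed pseudogenes with near-identical sequence, so single members are uncertain. Over all genes, 20 of the 155 rises and 1 of the 137 falls were processed pseudogenes, and 2 more rises were transcribed ones. How far they share reads with other genes was not tested, so the total of rises is uncertain too. Genes for ribosome assembly were not called (0 of 20, median 0.17), and Npm1, a nucleolar assembly factor, stood at 96.3, 118 and 115 CPM against 186, 178 and 128 CPM (adjusted p = 0.147).

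Transcripts of ribosomal proteins often begin with a C followed by a run of pyrimidines, the 5′ TOP element through which mTORC1 controls their translation. A run of at least 8 C or T opening with C lay within 20 bases before to 10 after the RefSeq start in 27 of 61 ribosomal protein genes with a window (44.3%) and in 11.3% of all 27025 genes with a window. Ribosomal protein genes that rose held it in 11 of 26 (42.3%) and those not called in 16 of 35 (45.7%). Within these windows, the run did not separate the genes that passed the test from the others. Capitals mark the run in the 30-base windows of 4 genes that rose, and Rpl23, which rose without such a run in its window, stands beside them. The windows of Rpl22l1, Tpt1 and Eef1b2, which also rose, held no run either. The Rpl22l1 window ends in a stretch of C and T that reaches its edge. A run outside the window is missed, so its absence here cannot show that a gene lacks the element.
Rps25 (chr9:44407694-44407723, plus strand): tCCTTTTTTTCCgacatcttagcgaggctg
Rpl14 (chr9:120571497-120571526, plus strand): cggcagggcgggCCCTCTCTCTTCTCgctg
Rps6 (chr4:86857358-86857387, minus strand): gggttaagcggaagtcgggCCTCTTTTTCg
Rack1 (chr11:48800340-48800369, plus strand): tccggcggaggccgCTCTTTCTTTTTCTCC
Rpl23 (chr11:97782430-97782459, minus strand): gctggacgaggtccggtcacgtggctgagt
Rack1, a scaffold on the small ribosomal subunit, rose from 214, 218 and 216 CPM to 360, 340 and 366 CPM (log2 0.72 ± 0.10 SE, adjusted p = 0.0275). Tpt1 and Eef1b2, the latter an elongation factor subunit, also rose (log2 0.66 each, adjusted p = 0.0464 and 0.0345), and these 3 genes were picked after their values were seen.

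Ribosomal protein transcripts are short, and transcript length was therefore set beside the result. Among protein-coding genes with a mean of at least 30 CPM, 35 of 79 ribosomal protein genes rose (44.3%). Of the 2380 other genes no longer than the longest of these, 32 rose (1.34%) with a median log2 fold change of 0.02. Of 872 longer genes 9 rose (1.03%). Length was taken as summed counts over summed FPKM. The cut at the longest ribosomal protein gene took in most of the other genes. The groups were thus not matched in length, and an effect of length was not tested. AY036118, a transcript at a locus known for ribosomal RNA sequence that overlaps Gm42418 and CT010467, rose from 4181, 3026 and 2557 CPM to 11126, 6653 and 9214 CPM (log2 1.47, adjusted p = 0.0453), and its part in the ribosomal protein result was not tested.

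**Figure D4:**
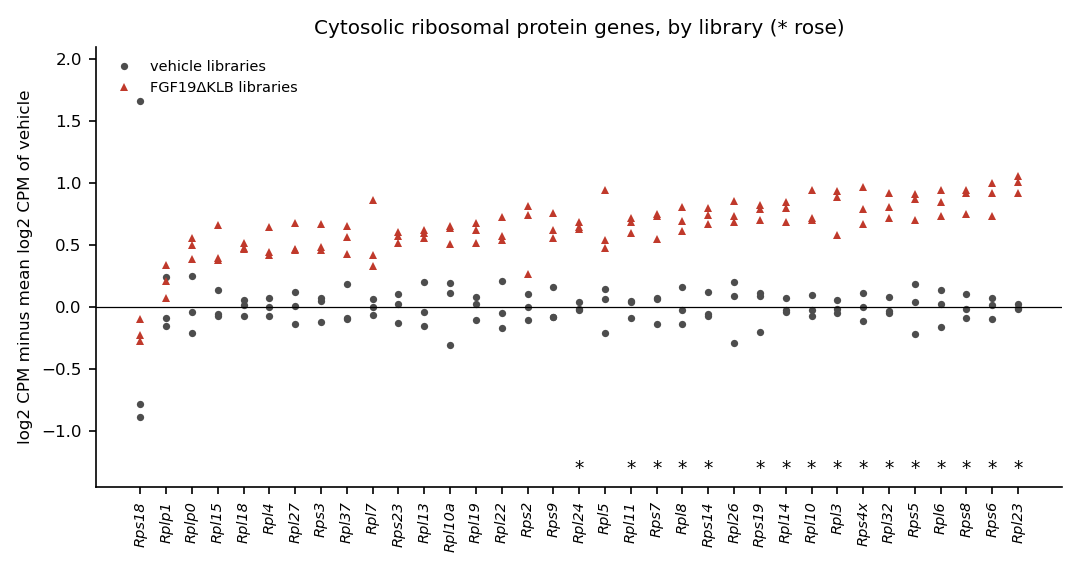
The vertical axis is log2 CPM minus the mean log2 CPM of the 3 vehicle libraries, for each of the 35 listed ribosomal protein genes ordered by log2 fold change. Red triangles (FGF19ΔKLB) lie above the dark circles (vehicle) for 33 genes, asterisks mark the 16 that rose, and Rps18 has 1 vehicle library far above the rest.

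Plasma protein transcripts mostly had positive log2 values and were rarely called. Alb stood at 106570, 132750 and 77108 CPM in vehicle and 205570, 163180 and 241560 CPM in FGF19ΔKLB (log2 0.95 ± 0.27 SE, adjusted p = 0.13). Apoa1, the main protein of HDL, was higher without overlap at adjusted p = 0.0537. F7, coagulation factor VII, rose from 79.2, 79 and 98.1 CPM to 154, 148 and 167 CPM (log2 0.87 ± 0.13 SE, adjusted p = 0.028). Of 30 complement and coagulation genes 2 rose, F7 and Serpinf2 (a plasmin inhibitor, adjusted p = 0.0494), and Mbl1, a mannose-binding lectin, fell (log2 -0.76, adjusted p = 0.0463). The leave-one-out fits called 1 rise and 1 fall of these without FGF19ΔKLB 2, 1 rise without vehicle 3 and none in the others. None of 24 acute phase genes was called, and Saa1 ranged over 132, 116 and 756 CPM against 13, 147 and 33.7 CPM.

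Endoplasmic reticulum chaperones had 1 call. Pdia6, a disulfide isomerase, rose from 150, 144 and 126 CPM to 235, 240 and 338 CPM (log2 0.95 ± 0.17 SE, adjusted p = 0.0464), although no leave-one-out fit called it. It was the only call among 20 endoplasmic reticulum chaperones, of which 13 were higher without overlap (median 0.35). Among 23 interferon-stimulated genes, Gbp3, a guanylate-binding protein, and Ifi44 rose (log2 1.28 and 2.0, adjusted p = 0.0187 and 0.049). The list had 0 rises when any vehicle library was left out, 1 without FGF19ΔKLB 1 or 3, and 3 without FGF19ΔKLB 2. Ccl9, a chemokine for myeloid cells, rose from 53.5, 48.1 and 48.7 CPM to 131, 127 and 146 CPM (log2 1.43 ± 0.11 SE, adjusted p = 0.00606). Of the 25 tested chemokines, cytokines and adhesion molecules, 23 had negative values, but 0 fell. Only 4 were lower without overlap, beside 12.7% of all tested genes. With Ccl9 included, the list summed to 457.2, 394.2 and 495.8 CPM in vehicle and 517.2, 484.7 and 476.9 CPM in FGF19ΔKLB.

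Of the cell cycle genes, Mki67, a marker of cycling cells, rose from 0.881, 1.44 and 0.682 CPM to 5.69, 5.89 and 5.95 CPM (log2 2.54 ± 0.31 SE, adjusted p = 0.018). All 24 tested mitosis genes had positive log2 values, with a median of 1.23 (1.59 without FGF19ΔKLB 1, 0.88 without FGF19ΔKLB 3). Mki67 was the only one called, and 6 were higher without overlap, beside 12.4% of all tested genes. The list's summed level was 13.45, 14.71 and 12.98 CPM in vehicle and 17.83, 38.77 and 48.2 CPM in FGF19ΔKLB. FGF19ΔKLB 1 thus lay nearest to the vehicle libraries. No mitosis gene was called without FGF19ΔKLB 1 or without vehicle 1. None of 26 replication genes or 18 G1 regulators was called, and Ccnd1, cyclin D1, overlapped between groups (log2 0.66, adjusted p = 0.419). H19, an imprinted fetal liver RNA, rose from 1.4, 1.23 and 1.22 CPM to 6.45, 3.24 and 10.9 CPM (log2 2.42 ± 0.43 SE, adjusted p = 0.0464), called in 1 leave-one-out fit. Peg3, an imprinted zinc finger gene, fell with no call in those fits (log2 -1.79, adjusted p = 0.0465), and Afp, α-fetoprotein, stood at 1.84, 2.72 and 2.51 CPM against 5.24, 3.85 and 14.1 CPM (adjusted p = 0.152).

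Markers of cells other than hepatocytes did not all go the same way. List medians were negative for T and NK, B and plasma, stellate, sinusoidal endothelial and Kupffer cells. For neutrophil, erythroid and cholangiocyte markers they were positive. In bulk liver fewer cells of a type and less RNA per cell cannot be told apart. Hepatocyte markers were present in every library and none of 14 was called. For T and NK cells, 9 of 17 tested markers were lower without overlap and none higher (median -1.41), and the summed level of the list was 30, 15.6 and 15.9 CPM in vehicle and 5.95, 7.82 and 5.5 CPM in FGF19ΔKLB. Cd8a, the CD8 T cell coreceptor, fell from 5.85, 2.56 and 2.82 CPM to 0.313, 0.464 and 0.366 CPM (log2 -3.29 ± 0.42 SE, adjusted p = 0.0187), called in 3 leave-one-out fits. Themis, a T cell signalling gene, fell from 7.47, 12 and 11.8 CPM to 0.114, 0.653 and 0.318 CPM (log2 -4.85 ± 0.59 SE, adjusted p = 0.0203).

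B and plasma cell markers summed to 436, 231 and 188 CPM in vehicle and 47.9, 106 and 61.1 CPM in FGF19ΔKLB, without a call among 15. All 5 immunoglobulin variable segments that were called fell, for example Igkv10-94 from 1.59, 3.79 and 1.66 CPM to 0.242, 0.247 and 0.207 CPM (adjusted p = 0.0219), and such segments share sequence with each other. Stellate cell and fibroblast markers were lower without overlap in 10 of 15 genes (median -0.94, summed level 301, 260 and 267 CPM against 117, 202 and 114 CPM). Ngfr, a receptor on stellate cells, was their only call, from 5.18, 4.79 and 4.69 CPM to 1.62, 1.77 and 1.49 CPM (log2 -1.58 ± 0.20 SE, adjusted p = 0.0187). Without FGF19ΔKLB 2 the list had 6 falls and a median of -1.43, without vehicle 2 it had 1 fall, and in the other 4 leave-one-out fits none. Col1a1, type I collagen, overlapped at 5.77, 5.3 and 8.37 CPM against 1.94, 9.48 and 11.3 CPM.

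Sinusoidal endothelial markers had negative log2 values in all 14 tested genes with a median of -0.53, and none was called. Without FGF19ΔKLB 3 the median was -0.28, with 1 positive value. Kupffer cell markers had a median of -0.45 with no call among 14. Neutrophil markers pointed up in 12 of 13 genes (median 1.91) with every one overlapping, since FGF19ΔKLB 2 alone summed to 213 CPM beside 5.92 to 40.8 CPM in the other 5 libraries. Erythroid markers were positive in 5 of 7 genes (median 1.18), and summed to 1720 CPM in FGF19ΔKLB 3 beside 189 to 470 CPM in the others. Cholangiocyte and progenitor markers were positive in 7 of 10 genes (median 0.30), with 1 higher and 0 lower without overlap and no call. The part of these cells in the changes described for other genes was not tested.

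**Figure D5:**
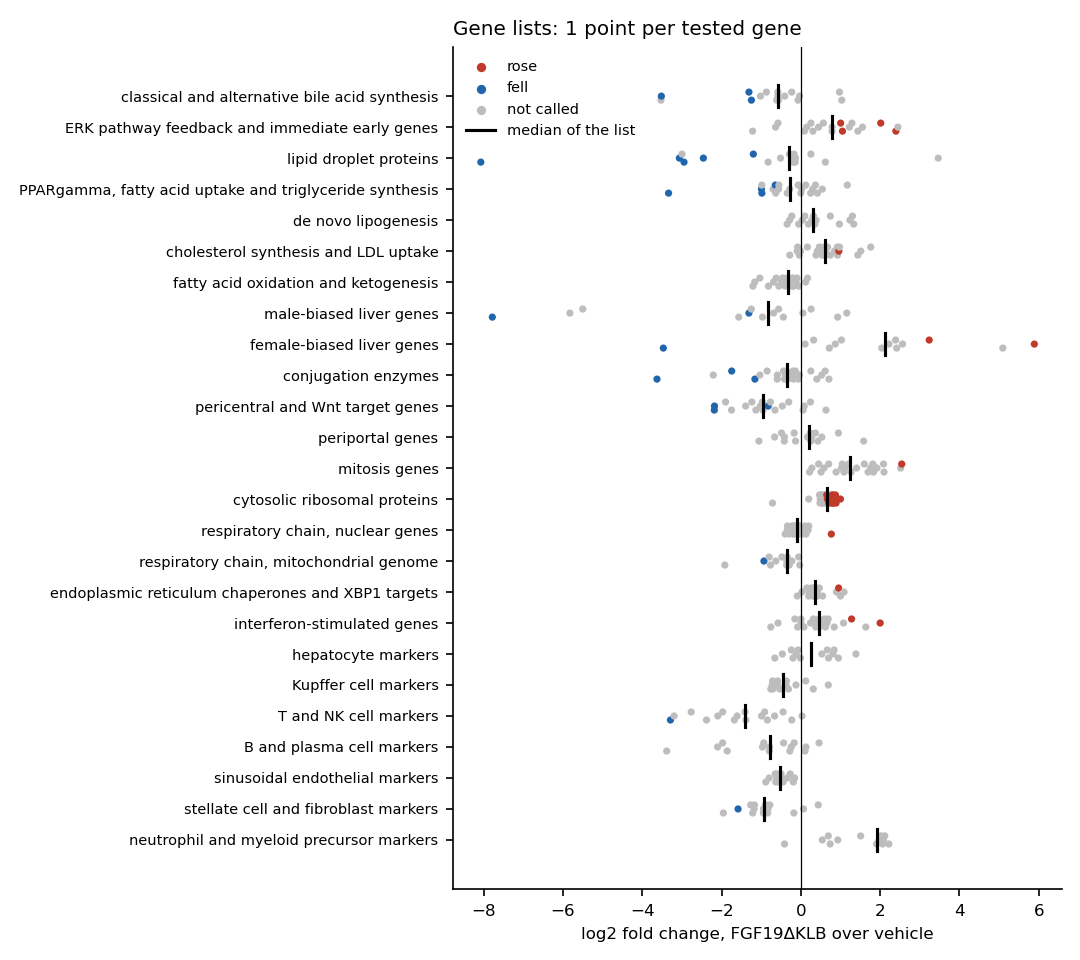
Each point is 1 tested gene of 25 lists, placed by its log2 fold change of FGF19ΔKLB over vehicle, with red for genes that rose, blue for genes that fell, grey for the rest and a black bar at each list's median. Ribosomal protein genes form a tight group above 0, female-biased genes have the highest median at 2.13, and T and NK cell markers the lowest at -1.41.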

How the data were processed

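Liver libraries of db/db mice, 3 titled vehicle and 3 titled FGF19ΔKLB, were grouped by their titles. The authors deposited a table of estimated counts per gene, whole numbers that were not scaled, and FPKM values (fragments scaled by transcript length and library size) for each library, per the file headers. The submitters' processing notes name Bowtie 0.12.2, HISAT2 2.0 and StringTie 1.3.0 and the build mm8 without roles. The positions in the table are those of GRCm38: all 28517 gene identifiers, chromosomes and starts match GENCODE M21. Low counts pile up on multiples of 4, with 2.24 to 2.47 times as many genes as at the neighbouring values, so 1 read pair appears to give about 4 counts.

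Counts were filtered with filterByExpr (17340 genes kept), scaled by TMM and tested with edgeR 4.0.16 (glmQLFit, glmQLFTest, 2 groups, R 4.3.3) on these 6 libraries, and p-values were adjusted by the Benjamini-Hochberg method. DESeq2 1.42.0 and limma 3.58.1 on log2(FPKM + 1) and log2(FPKM + 0.1) were alternatives, limma using genes with at least 1 FPKM in 3 libraries. The scripts were tested on simulated data. The gene lists and the members described were chosen with earlier results of these data known. Genes were named by a rule: a set of bile acid, FGF, lipid and growth genes in every case, the called genes with the largest change or smallest p (12 per direction), up to 5 called members per list, and up to 2 with the smallest p where none was called. Genes outside it were picked after their values were seen: Jun, Rps18, Rack1, Tpt1, Eef1b2, AY036118, Leprot, Cyp2a5, Cyp2c70, Cyp39a1, Pnpla3, Etv4, Igkv10-94, Aldh1a1, Aldh1a7, Aox1, Rdh16f2, Car3 and Mir22hg. Some genes that the rule names are not reported here. Promoter windows are RefSeq's on GRCm38.p6. Overlapping genes and close copies can share reads. With 3 libraries per group and totals of 68764247 to 73294927 counts, the number of libraries limits the precision.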

Additional observations from a re-analysis of the deposited data

How the results depend on the processing

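DESeq2's Wald test called every one of the 292 genes in the same direction, and 664 rises and 714 falls in all. Without a filter on low counts there were 224 rises and 212 falls. With counts divided by 4 there were 208 rises and 194 falls, and with limma on log2(FPKM + 1) 130 and 339, or 119 and 306 with a pseudocount of 0.1. A fit over all 9 libraries, which adds the spread of the third group, called 0 rises and 2 falls. A filter of 5 CPM (151 and 130) and DESeq2 size factors (151 and 144) changed little. Leaving out 1 library gave 15 to 126 rises and 29 to 150 falls. As a share of summed FPKM, albumin differed by 7.04 percentage points beside 7.91 of counts.

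With the replicate number as a block, 38 genes rose and 65 fell. Whether the numbers pair the libraries was not settled. Deviations of same-numbered libraries from their group means correlated at 0.062, 0.019 and 0.033, and those of differently numbered libraries at -0.061 to 0.025. Each vehicle library correlated best with its same-numbered FGF19ΔKLB library, whereas FGF19ΔKLB 2 correlated best with vehicle 3 (0.025). With 3 libraries per group, such small values cannot decide the question. Of 109 named genes that were called, the block kept 58, and none changed direction in any alternative. All called genes had groups that did not overlap, so refits without a library or with another filter or scaling could hardly reverse a direction. The lack of reversals was therefore not a test of how firm the calls are.

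Directions that turned were all of genes without a call. On log2(FPKM + 1) and log2(FPKM + 0.1), log2 fold changes were -0.032 and -0.192 for Col1a1, -0.066 and -0.069 for Igf1, -0.029 and -0.038 for Klb, and -0.026 and -0.030 for Leprot. With the replicate block Col1a1 was -0.06. Leaving out 1 library moved the log2 fold change between -0.187 and 0.678 for Col1a1, -0.84 and 0.163 for Cyp2a5, -1.251 and 0.489 for Fgf21, -0.126 and 1.785 for Hba-a1, and -0.002 and 0.346 for Klb. The range was -0.123 to 0.612 for Nr0b2, -0.301 to 0.12 for Plin2, -1.105 to 0.636 for Rps18, -0.27 to 2.528 for S100a8 and -0.511 to 0.085 for Scd1. Values turned without vehicle 2 for Nr0b2, Fgf21, Plin2, Rps18 and Cyp2a5, without FGF19ΔKLB 3 for Col1a1, Hba-a1 and Cyp2a5, without FGF19ΔKLB 2 for S100a8 and Scd1, and without FGF19ΔKLB 1 for Klb. The cause was not tested.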

Other observations

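Retinoid and aldehyde metabolism was not among the gene lists, and its genes other than Rdh16 were picked after their values were seen. Rdh16, a retinol dehydrogenase, fell from 178, 155 and 145 CPM to 49.6, 35.3 and 36.8 CPM (log2 -1.97 ± 0.17 SE, edgeR adjusted p = 0.00606). Aldh1a1, which turns retinal into retinoic acid, fell from 2289, 2456 and 2101 CPM to 776, 1030 and 944 CPM (log2 -1.32 ± 0.16 SE, adjusted p = 0.016). Its close copy Aldh1a7 fell by 1.39 on the log2 scale, and Aox1, an aldehyde oxidase, fell by 1.84. Rdh16f2, which lies beside Rdh16 on chromosome 10, went the other way, from 114, 107 and 85 CPM to 219, 203 and 260 CPM (log2 1.16 ± 0.16 SE, adjusted p = 0.0219).

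Other genes with large changes belonged to none of the lists described. Tstd1, a sulfurtransferase gene, rose from 5.15, 6.66 and 4.06 CPM to 46, 47.7 and 37.4 CPM (log2 3.05 ± 0.21 SE, adjusted p = 0.00606). Ephb2, an ephrin receptor, fell from 9.2, 14.4 and 8.48 CPM to 0.114, 0.232 and 0.366 CPM (log2 -5.49 ± 0.45 SE, adjusted p = 0.00606). Car3, a carbonic anhydrase abundant in liver, fell from 2461, 2219 and 1490 CPM to 361, 347 and 561 CPM (log2 -2.28 ± 0.27 SE, adjusted p = 0.016). Tlcd2 fell from 43.4, 41.9 and 35.4 CPM to 14.1, 15.2 and 14.2 CPM, while Mir22hg, which overlaps it on the same strand, stood at 38.6, 28.3 and 36.9 CPM against 22.5, 24.7 and 22.7 CPM (adjusted p = 0.0985). Miox, an inositol oxygenase of kidney, had no count in any vehicle library and 1.07, 1.09 and 3.15 CPM in FGF19ΔKLB (adjusted p = 0.0275).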
